A study of Cucumis sativus var. sativus with 11 samples.

Results

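The genes described here stood higher in cucumber (Cucumis sativus) ovaries 1 day after pollination than at flower opening, and lower in ovaries left 1 day without pollen. They were chosen from the deposited normalized counts, on the scale log2(value + 1), by group means. A gene entered when its anthesis mean was 50 or more, its pollinated mean lay 0.4 to under 0.8 above the anthesis mean, its unpollinated mean lay 0.4 to under 1 below it, and its inhibited mean lay between the unpollinated and pollinated means. This rule found 28 genes among 23248 in the table, or 0.174% of the 16062 genes with an anthesis mean of 50 or more. The mirror image of the rule, lower with pollen and higher without it, was met by 57 genes. The group means that chose the genes are therefore given as a description, and no finding rests on the order of the groups.

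The study sequenced RNA from 11 individual ovaries of Elem Female, a gynoecious line (female flowers only) that is not parthenocarpic, so that it needs pollination to set fruit. The plants grew in a net-house and were sampled early in the morning, and pollen came from a separate pollinator genotype. Anthesis ovaries (A, n = 3) were taken on the day of flower opening, ready to be pollinated. Pollinated ovaries (F+1, n = 3) and unpollinated ovaries (S+1, n = 3) were taken 1 day later. Inhibited ovaries (f+1, n = 2) were also pollinated and taken after 1 day, but older fruits were present on the plant. All groups share the line and the tissue. Unpollinated ovaries on plants with older fruits were not analysed here, so inhibited ovaries differ from unpollinated ones in both pollen and older fruits. Whether ovaries came from separate plants is not given in the labels, so p-values weigh group differences against the spread between these ovaries.

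In cucurbits the ovary is nearly full in form when the flower opens, and its further growth depends on a signal from pollination and fertilization. With pollen, auxin and gibberellin signalling rise and cell division resumes in the young fruit. Without pollen, growth of a seeded variety stops and the ovary later yellows and withers, and older fruits on the same vine can halt a younger ovary even when it has been pollinated. What the individual genes encode is not stated here, because the files hold identifiers alone, and 0 of them were found among the 23999 genes of the reference table. No sequence is shown for the same reason.

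Libraries held 18158218 to 26456643 reads assigned to genes. Reads that could not be given to 1 gene made up 16.8 to 24.8% of 4 libraries (pollinated replicates 1 and 3, unpollinated replicate 3 and inhibited replicate 2) and 10.8 to 13.3% of the others; this is called the unassigned share. All anthesis and pollinated libraries and unpollinated replicate 1 carried 1 form of the second index sequence. Unpollinated replicates 2 and 3 and both inhibited libraries carried the other form. Anthesis replicate 3 alone was sequenced on lane 2. RNA came from whole ovary tissue, so a change in the share of a cell type and a change in RNA per cell cannot be told apart.

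Across the 28 genes, pollinated ovaries lay a median of 0.45 above anthesis on the log2 scale, with a range of 0.40 to 0.68. Unpollinated ovaries lay a median of 0.55 below anthesis (0.41 to 0.99). Pollinated and unpollinated ovaries thus differed by a median of 1.05 on this scale, or 2.08-fold, with a range of 1.79-fold to 2.95-fold. The fall without pollen was larger than the rise with pollen in 18 genes and smaller in 10. Over all 16062 genes at this level the corresponding median differences were 0.00 for pollinated minus anthesis and -0.01 for unpollinated minus anthesis.

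**Figure D1:**
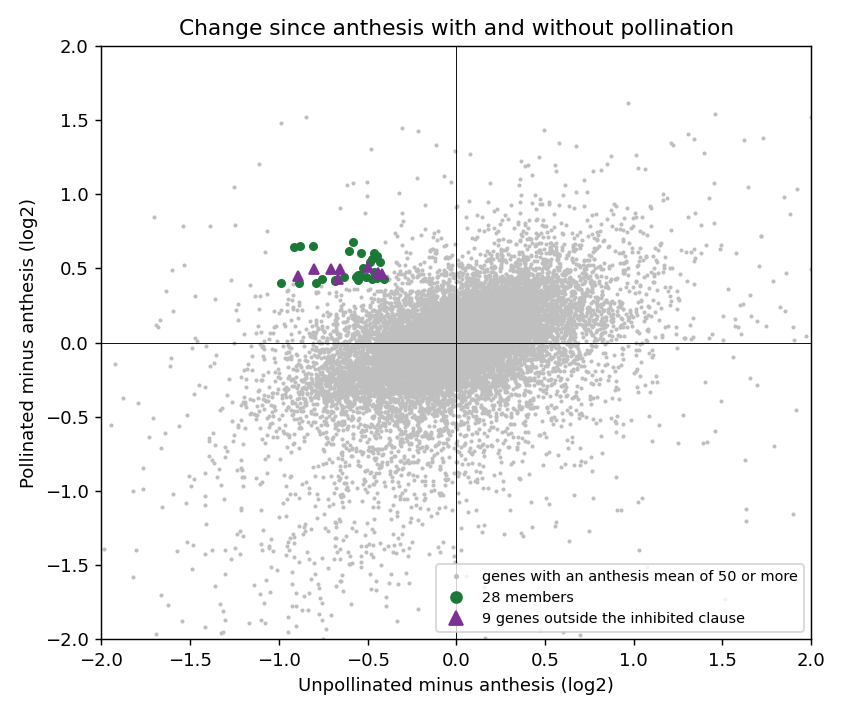
Each point is a gene, placed by the difference of its unpollinated mean (horizontal axis) and pollinated mean (vertical axis) from the anthesis mean, both in log2(value + 1). Grey points are genes with an anthesis mean of 50 or more (238 lie beyond the axis limits of 2 and are not drawn), green circles the 28 members and purple triangles the 9 genes that met all but the clause on inhibited ovaries. The members lie in the rule's window in the upper left, with rises of up to 0.68. By the rule, every gene in that window is a member or a triangle.

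The rule set the side of the pollinated and unpollinated group means, so the values by library are a description. The members' median against the anthesis mean was 0.50, 0.47 and 0.58 (log2) in pollinated replicates 1 to 3, and -0.60, -0.64 and -0.52 in unpollinated replicates 1 to 3. The inhibited libraries had medians of 0.10 and 0.12. The number of genes above the anthesis mean was 27, 28 and 27 of 28 in the pollinated libraries and 1, 1 and 0 in the unpollinated ones. In the inhibited libraries it was 17 and 18. Of the 16062 genes with an anthesis mean of at least 50, 46.9 to 50.0% lay above their anthesis mean in these 8 libraries. Unpollinated replicate 3, which had a raised unassigned share, was the nearest of its group to anthesis in this median, and no member exceeded the anthesis mean in it.

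**Figure D2:**
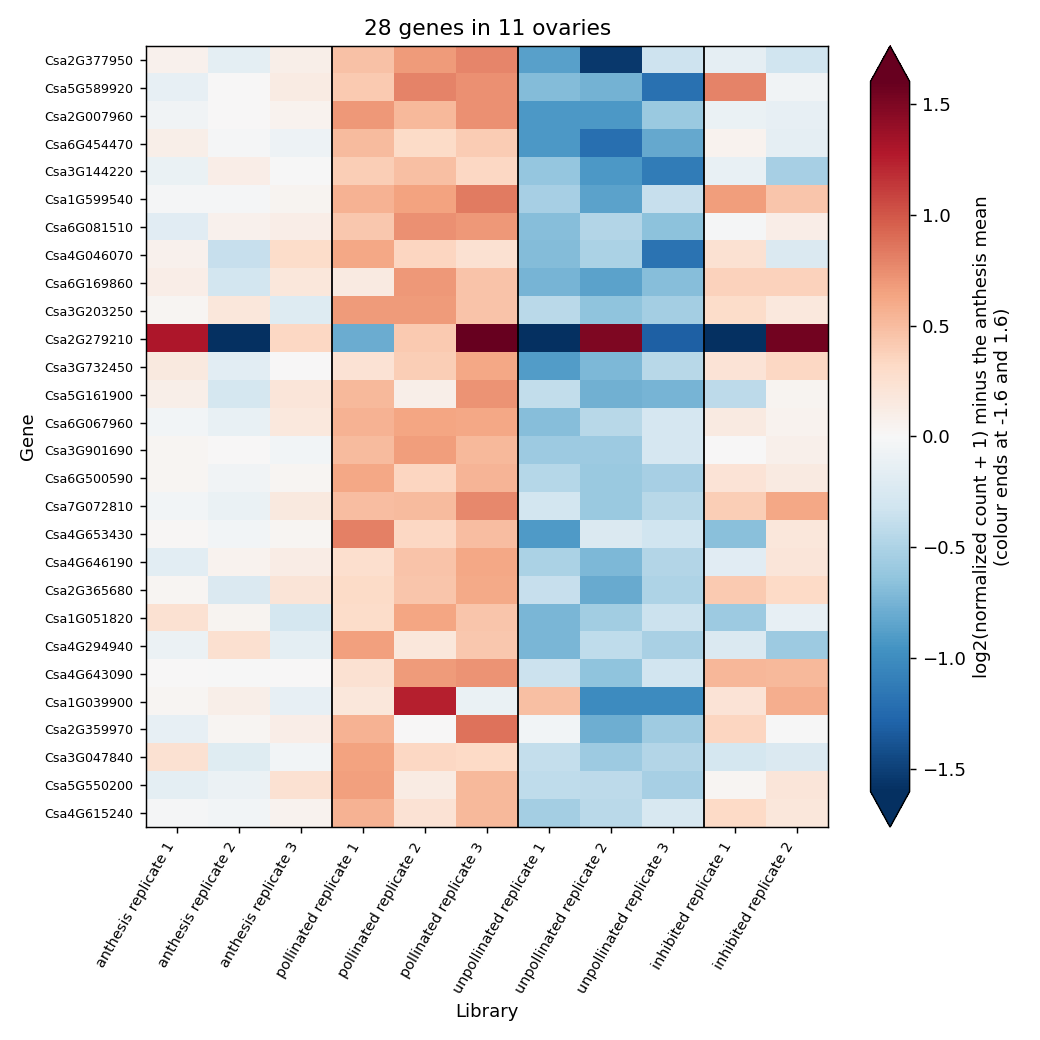
Rows are the 28 genes, ordered from the largest pollinated minus unpollinated difference of log2(value + 1) means (Csa2G377950) to the smallest (Csa4G615240), and columns are the 11 libraries. Colour gives log2(value + 1) minus the gene's anthesis mean, red above and blue below. Csa2G279210 is the row in which every group holds libraries both above and below the anthesis mean.

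The window of the rule was open at its outer edge: the largest rise was 0.68 in Csa1G599540 against a limit of 0.8, and the nearest gene beyond that limit, Csa3G902220, had 0.87. At the inner edge the members graded into other genes. Csa3G144220 rose by 0.402 and was in, while Csa6G151130 had 0.394 and was out. Csa4G615240 was in with an unpollinated mean 0.41 below anthesis, and Csa3G892190 was out with 0.3999. At the other limit of the fall, Csa6G454470 had 0.99 and Csa5G197120 had 1.06. By anthesis mean, Csa3G203250 entered with 56.7 and Csa5G148570 was left out with 49.8.

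A quasi-likelihood model (edgeR) was fitted to the raw counts of all 18679 genes that passed a filter on low counts, and all 28 members passed it. These contrasts repeat the means that chose the genes, so their counts only say how many members also differed beyond the spread between ovaries. Pollinated ovaries were called higher than unpollinated ones in 26 of 28 (Benjamini-Hochberg adjusted p under 0.05; 15% of all genes tested were called in that direction). The rise from anthesis with pollen was called in 13 (7.39% of all genes) and the fall without pollen in 20 (18.1%). In 12 genes all of these contrasts were called, against 0.369% of all genes tested. The 12 were Csa1G599540, Csa2G007960, Csa2G365680, Csa3G901690, Csa4G615240, Csa4G646190, Csa5G589920, Csa6G067960, Csa6G081510, Csa6G454470, Csa6G500590 and Csa7G072810. Only 6 of 28 had all contrasts called with the second index form as a term, and 3 without the 4 libraries of raised unassigned share, a fit in which a lone pollinated library is assumed to vary like the other groups. Pollinated ovaries were called higher than unpollinated ones in 20 with the index term and in 19 without the 4 libraries. The fall without pollen was called in 7 (index term), and the rise with pollen in 3 (without the 4 libraries). With the index term, anthesis and pollinated ovaries are compared with unpollinated replicate 1 alone, the only unpollinated library of their form. The median log2 fold changes over the 28 genes did not shrink in that fit. Pollinated against unpollinated gave 1.13 (1.04 without the term), and unpollinated against anthesis gave -0.61 (-0.56 without it). Most members that lost the call of the fall in that fit had a smaller fall there. Csa2G365680 went from -0.56 to -0.38, while Csa4G294940 went from -0.56 to -0.76. All that lost the call of pollinated against unpollinated had a smaller difference, such as 0.58 in Csa2G359970 (0.97 without the term). Why calls were lost was not tested. Without single libraries the rise was called in 9 to 14 genes, with 9 without anthesis replicate 1, pollinated replicate 2 or pollinated replicate 3.

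The libraries of the groups themselves were apart in most genes. In 20 of 28 every pollinated library lay above every anthesis library and every anthesis library above every unpollinated one, which held for 1.86% of the 16062 genes. Pollinated libraries were all above anthesis in 20 (19.4% of the 16062 genes), and anthesis libraries all above unpollinated in 25 (28.3%). Pollinated and unpollinated libraries did not overlap in 26 (24.5%). The rule favours all of these counts.

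On the log2(value + 1) means, the largest difference between pollinated and unpollinated ovaries was 1.56, in Csa2G377950. It had 343, 292 and 349.7 normalized counts at anthesis, 455, 527 and 563 with pollen, and 178, 112 and 261 without it. Inhibited ovaries had 296 and 262. Anthesis, pollinated and unpollinated libraries did not overlap, but the unpollinated ones were widely spaced. Pollinated exceeded unpollinated ovaries by 1.5 ± 0.22 in log2 fold change (SE; adjusted p = 0.000485 by edgeR), while the rise from anthesis, 0.65 ± 0.21, was not called (adjusted p = 0.0506 by edgeR). That rise was called without unpollinated replicate 2 or 3 in the fit (adjusted p = 0.0147 and 0.0112) and with DESeq2 (adjusted p = 0.0174).

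On the same means Csa5G589920 came next with 1.53, whereas its fitted difference was the greater of the pair; the SEs exceed the gap on either scale. Its values were 696, 769 and 836 normalized counts at anthesis. Pollinated ovaries had 1020.5, 1327 and 1276, and unpollinated ovaries 474, 451 and 333. These groups were apart, but the inhibited libraries were not alike: 1 reached the top of the pollinated range at 1327 and the other lay within the anthesis range at 735. Pollinated exceeded unpollinated ovaries by 1.53 ± 0.19 in log2 fold change (SE; adjusted p = 0.000195 by edgeR). The rise from anthesis was called (adjusted p = 0.0322 by edgeR). It was not called when any anthesis library, or pollinated replicate 2 or 3, was left out (adjusted p from 0.0682 to 0.105). The fall was not called with the index form as a term (adjusted p = 0.14).

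Csa2G007960 had the third largest difference of means, 1.46, with closely spaced replicates. Its values were 368, 384 and 396 at anthesis, 620.2, 549 and 637 with pollen, 202, 203 and 253 without it, and 355 and 351 in inhibited ovaries. No pair of groups overlapped in it. In log2 fold change it moved from anthesis by 0.66 ± 0.10 with pollen (SE; edgeR adjusted p = 0.00227) and -0.81 ± 0.11 without (SE; edgeR adjusted p = 0.000266). Without the 4 libraries of raised unassigned share the rise was not called (adjusted p = 0.0673).

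Csa6G454470 had the deepest fall and a small rise. Its normalized counts were 1981, 1829 and 1758 at anthesis, 2624, 2287 and 2453 with pollen, and 976, 799 and 1049 without pollen. The inhibited libraries, at 1934 and 1677, lay around the anthesis values. In log2 fold change the fall without pollen was -0.98 ± 0.10 (SE; adjusted p = 0.000125 by edgeR) and the rise with it 0.40 ± 0.10 (SE; adjusted p = 0.0158 by edgeR). The rise was not called without anthesis replicate 3 (adjusted p = 0.0671), without pollinated replicate 1 (adjusted p = 0.0562) or without the 4 libraries of raised unassigned share (adjusted p = 0.195).

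Csa1G599540 showed the reverse balance, with a larger rise than fall. It stood at 1406, 1414 and 1473 normalized counts at anthesis, 2111, 2231 and 2539 with pollen and 990.3, 793 and 1111 without. The log2 fold change from anthesis was 0.68 ± 0.11 with pollen (SE; edgeR adjusted p = 0.00243) and -0.57 ± 0.11 without it (SE; edgeR adjusted p = 0.00201; 0.068 with the index form as a term). Csa7G072810 had the most reads of the 28 and a similar balance. Its anthesis libraries held 4107, 3942 and 4738 normalized counts, its pollinated libraries 5965, 6012 and 7238, and its unpollinated libraries 3451, 2815 and 3135. All libraries of these groups were apart. Reads are not corrected for gene length here, so this order of read counts is not an order of transcript levels.

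The closest replicates were those of Csa6G500590, with 1226, 1149.8 and 1223 normalized counts at anthesis, 1846, 1521 and 1756 with pollen, 874, 792 and 829 without pollen, and 1397 and 1320.4 in inhibited ovaries. All the groups were apart from each other in this gene. The standard deviation within groups was 0.0932 on the log2 scale, and pollinated exceeded unpollinated ovaries by 1.04 ± 0.08 in log2 fold change (SE; adjusted p = 8.62e-06 by edgeR). Csa3G901690 and Csa2G007960 followed, with standard deviations of 0.11 and 0.12.

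Other genes met the rule through scattered libraries. Csa2G279210 had 1026, 134 and 526 normalized counts at anthesis, 239.9, 556 and 1311 with pollen, 87.5, 1180.4 and 168 without it, and 109 and 1214 in inhibited ovaries. Every group held both low and high libraries, and no pair of groups was apart. Its within-group standard deviation was 1.73, the largest of the 28. The difference between its pollinated and unpollinated means was 1.11 on the log2 scale, but the fit gave 0.55 ± 0.98 (SE; adjusted p = 0.708 by edgeR), so the difference of its means is not larger than their spread. The fitted value was -0.27 without pollinated replicate 3 and 2.47 without unpollinated replicate 2. The high libraries were anthesis replicate 1, pollinated replicate 3, unpollinated replicate 2 and inhibited replicate 2, and only 2 of these had a raised unassigned share.

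Csa1G039900 was the other member not called between pollinated and unpollinated ovaries. Its pollinated libraries had 123, 258 and 101 normalized counts and its unpollinated libraries 152, 53.5 and 53.5, so that unpollinated replicate 1 lay above pollinated replicates 1 and 3. Anthesis libraries were even, at 111, 116 and 99.1. The fit put its pollinated libraries 0.91 ± 0.40 above its unpollinated ones in log2 fold change (SE; adjusted p = 0.107 by edgeR). Without unpollinated replicate 1 it was 1.58 and called (adjusted p = 0.00776).

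The remaining genes are given by their fold on the log2(value + 1) scale. Csa3G144220, Csa6G081510, Csa4G046070, Csa6G169860, Csa3G203250, Csa3G732450, Csa5G161900 and Csa6G067960 had pollinated means 2.44 to 2.09 times the unpollinated means. Csa3G901690, Csa4G653430, Csa4G646190 and Csa2G365680 lay between 2.06-fold and 2.01-fold. The 8 members under 2-fold were Csa1G051820, Csa4G294940, Csa4G643090, Csa1G039900, Csa2G359970, Csa3G047840, Csa5G550200 and Csa4G615240. Of these, Csa4G615240 had the lowest fold, 1.79, yet its libraries were apart, at 1675, 1648 and 1761 normalized counts at anthesis, 1982 to 2491 with pollen and 1165 to 1423 without it.

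The spread between replicates was not used by the rule. The median within-group standard deviation of the 28 genes was 0.186 (log2), against 0.134 over the 16062 genes with an anthesis mean of 50 or more, and 24 of the 28 lay above that median. The members were also read at a lower level, with a median anthesis mean of 237 normalized counts against 698 over those genes. Spread was not compared at equal levels. This is a description of a list chosen by its means, and it was not tested. In the edgeR fit the median biological coefficient of variation was 13.5% for the members and 10.5% for all genes tested.

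Which genes met the rule depended on single libraries. When the rule was applied 11 times, each time without 1 library, 22 to 39 genes met it, and 18 to 24 of them were among the 28. The highest counts, 39 each, came without anthesis replicate 3 and without pollinated replicate 1. Without the 4 libraries of raised unassigned share 49 genes met the rule, of which 12 were members, but the pollinated and inhibited means then rest on 1 library each. Only 6 members met the rule in all 11 choices: Csa1G599540, Csa2G007960, Csa3G203250, Csa3G901690, Csa6G081510 and Csa6G500590. Csa2G279210 met it in 2 and Csa1G039900 in 5.

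**Figure D3:**
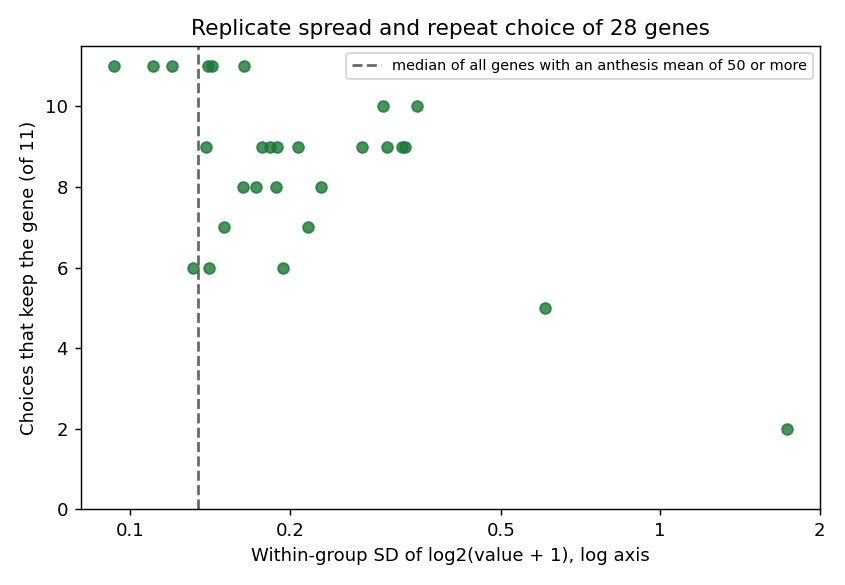
Each point is a member, placed by its within-group standard deviation of log2(value + 1) over all 11 libraries (horizontal, log axis) and by how many of the 11 choices made without 1 library still held it (vertical). The dashed line is the median standard deviation of the 16062 genes, 0.134; the point at the lower right is Csa2G279210, with 1.73 and 2 choices.

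A library left out of the choice gives a value that did not help to choose the genes, although the anthesis libraries it is compared with did. Genes chosen without pollinated replicate 1 had a median of 0.23 above anthesis in that library, against 0.53 in the other pollinated libraries. For pollinated replicate 2 the values were 0.40 and 0.56, and for pollinated replicate 3 they were 0.46 and 0.56. Each left-out pollinated library was thus above anthesis in the median, by less than the libraries that made the choice. It was above the anthesis mean in 33 of 39, 26 of 26 and 20 of 22 genes, where 49.6 to 50.0% of all genes at this level were above.

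Without pollen the left-out libraries behaved alike in direction. Unpollinated replicate 1 had a median of -0.40 where the kept libraries had -0.56, and unpollinated replicate 3 had -0.44 against -0.56. For unpollinated replicate 2 the left-out value, -0.68, was further from anthesis than the kept value, -0.58. These libraries lay below the anthesis mean in 27 of 30, 23 of 24 and 28 of 34 genes for replicates 1, 2 and 3, against 50.2 to 51.4% of all genes.

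**Figure D4:**
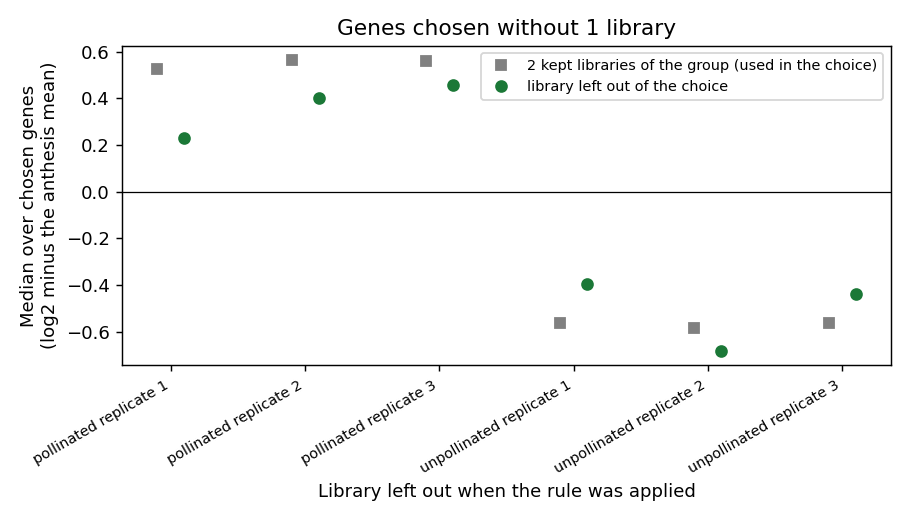
For each pollinated and unpollinated library, the rule was applied without it; the grey square is the median over the chosen genes in the other 2 libraries of its group and the green circle the median in the library left out, both in log2 minus the mean of the anthesis libraries. All left-out medians keep the sign of the group, from 0.23 to 0.46 with pollen and from -0.68 to -0.40 without.

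The form of the second index differed between groups, so values within 1 form are also given. Among libraries of the first form, unpollinated replicate 1 lay below every pollinated library in 27 of 28 genes (36.9% of the 16062 genes) and below every anthesis library in 26 (37.4%). Its median was 1.12 below the pollinated mean and 0.60 below the anthesis mean (log2). Among libraries of the second form, both inhibited libraries lay above unpollinated replicates 2 and 3 in 24 of 28 genes (31.4% of the 16062 genes), with a median difference of 0.70, where all genes at this level had 0.01. These libraries also entered the rule, which required the unpollinated mean to lie below the anthesis, pollinated and inhibited means, so the counts are a description. Inhibited ovaries share no index form with anthesis or pollinated ovaries, so the form and the group cannot be told apart in those comparisons. With the index form as a term, the fit takes the index difference from the unpollinated libraries alone. These are 1 library of the first form and 2 of the second.

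Inhibited ovaries lay at different points of the range between the other 1-day groups. On a scale that puts the unpollinated mean at 0 and the pollinated mean at 100%, their mean ran from 15.6% in Csa4G294940 to 98.0% in Csa4G643090, with a median of 65.4%. The anthesis mean lay at 43.1 to 71.0% of this range, with a median of 54.0%. Over all 16062 genes with an anthesis mean of 50 or more, the median place was 64.8% for inhibited and 83.3% for anthesis ovaries. That scale is unstable for genes whose pollinated and unpollinated means nearly coincide. The rule bounds the place of the members but not that of all genes. These medians therefore cannot show whether the place of inhibited ovaries is particular to the members. The inhibited mean lay under 25% of the range in 4 genes, from 25 to 50% in 5, from 50 to 75% in 10 and at 75% or more in 9. The rule holds inhibited means between 0 and 100%, so that only the place within these limits is open.

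**Figure D5:**
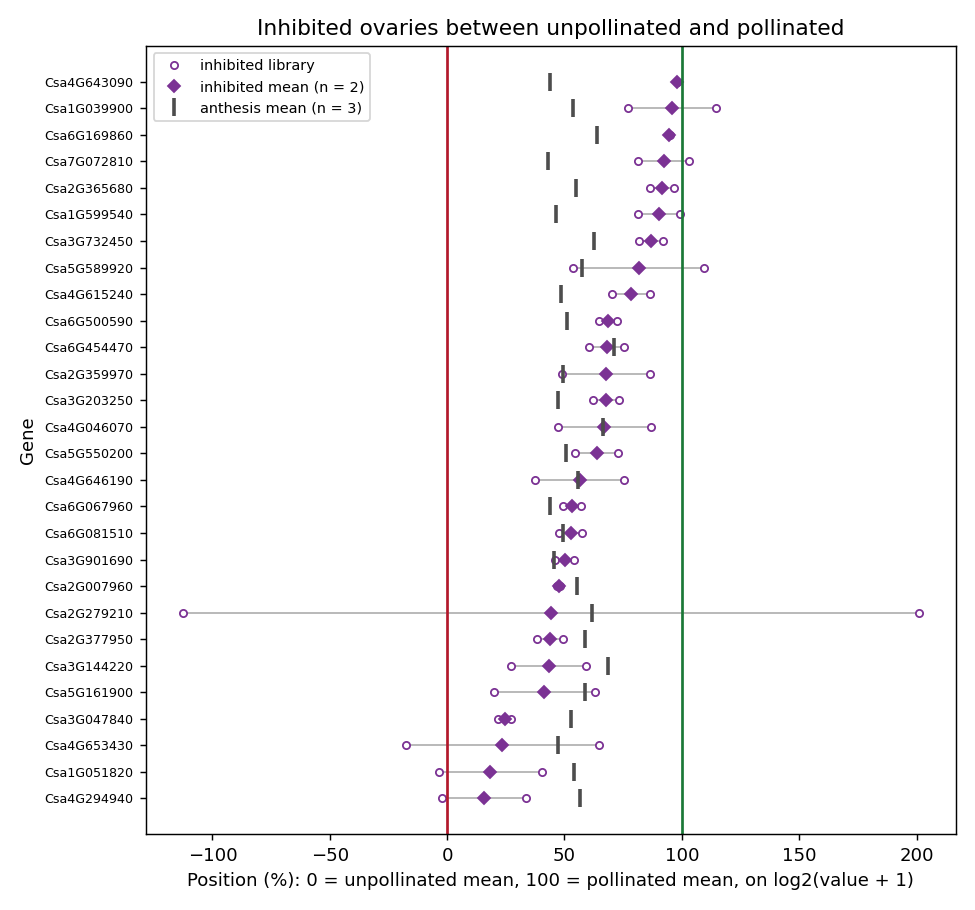
Each row is a member; the horizontal axis gives the place of the inhibited mean (filled diamond, n = 2), each inhibited library (open circle) and the anthesis mean (grey bar, n = 3) between the unpollinated mean (red line at 0%) and the pollinated mean (green line at 100%), on log2(value + 1). Rows run from Csa4G294940 at 15.6% to Csa4G643090 at 98.0%, and the libraries of Csa2G279210 lie beyond both lines.

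Inhibited ovaries were compared with pollinated and with unpollinated ovaries in the same fit, and both of those groups also set the range. Levels were called lower than in pollinated ovaries in 11 of 28 genes (4.81% of all genes tested were called in that direction) and higher than in unpollinated ovaries in 17 (9.81%). All inhibited libraries lay below all pollinated ones in 16 genes (20.6% of the 16062 genes) and above all unpollinated ones in 22 (24.7%). Inhibited ovaries were called apart from both groups in 6 genes (0.128% of all genes). The other members divided into 11 called above unpollinated only, 5 below pollinated only and 6 called in neither comparison. This division was not compared with all genes, so it only describes the list. The fit without the 4 libraries of raised unassigned share holds only 1 pollinated and 1 inhibited library. A call missed in 1 comparison does not show that the groups were alike. These counts changed with single libraries: the count of 11 became 1 without pollinated replicate 3 or without inhibited replicate 1, 4 without pollinated replicate 2, 5 without inhibited replicate 2, and 6 without anthesis replicate 1 or pollinated replicate 1. It was 2 with the index form as a term, 5 in a fit of only the groups compared, and 0 without the 4 libraries of raised unassigned share (8 at an unadjusted p under 0.05). The count of 6 apart from both became 1 without pollinated replicate 3, inhibited replicate 1 or inhibited replicate 2, 3 without pollinated replicate 2, 2 with the index form fitted and 0 when the 4 libraries were dropped.

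The 6 genes called apart from both were Csa2G007960, Csa3G901690, Csa6G067960, Csa6G081510, Csa6G454470 and Csa6G500590. Only Csa2G007960 kept both calls whichever single library was left out. The others were not called below pollinated ovaries without pollinated replicate 3 (adjusted p from 0.0516 to 0.0941 by edgeR). In Csa6G081510 inhibited ovaries had 291 and 317 normalized counts, beside 261, 311 and 318 at anthesis. Pollinated ovaries had 398, 492 and 477, and unpollinated ovaries 184, 213 and 187. The inhibited libraries lay between these groups without overlap. In log2 fold change they stood at -0.59 ± 0.14 against pollinated ovaries (SE; adjusted p = 0.0158 by edgeR) and 0.64 ± 0.14 against unpollinated ones (SE; edgeR adjusted p = 0.00707). The first of these was not called without pollinated replicate 2 or 3 (adjusted p = 0.054 and 0.0516) or inhibited replicate 1 (0.126), and the second not without inhibited replicate 2 (0.0539). Csa3G901690 had inhibited values of 177 and 188, where anthesis had 180.4, 179 and 173, pollinated 251, 283 and 255, and unpollinated 118, 118 and 146. Csa6G067960 had 367 and 347 in inhibited ovaries and 322, 306 and 373 at anthesis. Its pollinated libraries had 488, 515 and 509.9 and its unpollinated libraries 207, 243 and 276, so that its inhibited libraries overlapped only the anthesis range.

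In a second set inhibited ovaries lay near pollinated ones. Csa1G599540 had 2269.9 and 1941 normalized counts in inhibited ovaries, and Csa7G072810 had 5582 and 6528, both above every anthesis library. Csa4G643090 had 155 and 154 in inhibited ovaries, with 127, 172 and 176 in pollinated, 108, 107 and 107 in anthesis, and 84.3, 68.5 and 86.9 in unpollinated ovaries. Csa6G169860 had 717 and 719 in inhibited ovaries, inside its pollinated range of 613 to 899.5 and above its unpollinated range of 307 to 347. In log2 fold change, the inhibited level of Csa6G169860 lay 1.13 ± 0.16 above the unpollinated one (SE; adjusted p = 0.000855 by edgeR) and at -0.08 ± 0.16 against the pollinated one (SE; adjusted p = 0.806 by edgeR). Csa2G365680, Csa3G732450, Csa4G615240 and Csa5G589920 were also at 75% of the range or more and called above unpollinated ovaries. Csa1G039900, at 95.9%, was not called in either comparison.

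In the third set inhibited ovaries lay near unpollinated ones. Csa4G294940 had 92.9 and 72.7 normalized counts in inhibited ovaries, beside 65.1, 81.6 and 75.8 in unpollinated, 102, 129.7 and 97.3 in anthesis and 173, 124 and 147 in pollinated ovaries. The inhibited libraries overlapped the unpollinated ones and lay below every other library. Against pollinated ovaries the fit gave the inhibited ones -0.82 ± 0.22 in log2 fold change (SE; adjusted p = 0.0324 by edgeR). Csa3G047840 had 104 and 108 in inhibited ovaries, against 198, 160.0 and 158 with pollen and no older fruits, or -0.69 ± 0.19 in log2 fold change (SE; adjusted p = 0.0341 by edgeR). Neither call held without pollinated replicate 1 or 3 or without either inhibited library (adjusted p from 0.0501 to 0.172 over both genes), nor that of Csa3G047840 without pollinated replicate 2 (0.0551). Without the 4 libraries of raised unassigned share the value of Csa4G294940 was -0.41, from 1 pollinated and 1 inhibited library. Csa1G051820 had 58.2 and 79.2 in inhibited ovaries, where pollinated ovaries had 107, 135 and 119. Csa4G653430, at 23.6% of the range, had uneven inhibited libraries of 39.4 and 71.4 and was called in neither comparison. Csa2G377950 and Csa3G144220 are not of this set and lay nearer the middle of the range, at 43.7 and 43.3%. They were called below pollinated ovaries only, although their inhibited libraries lay above every unpollinated one.

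The rule did not set on which side of anthesis the inhibited ovaries lay. Their mean was above anthesis in 18 genes and below it in 10, and the median difference was 0.07 (log2), against -0.01 for all genes at this level. Of the 28 genes, 2 were called higher in inhibited ovaries than at anthesis (4% of all genes tested were called higher) and 0 lower (3.36%; edgeR; DESeq2 also called 0, and 0 had an unadjusted edgeR p under 0.05). The 2 genes were Csa7G072810, 0.51 ± 0.12 above anthesis in log2 fold change (SE; adjusted p = 0.0255 by edgeR), and Csa1G599540, with 0.56 ± 0.12 (SE; adjusted p = 0.0213 by edgeR). Neither was called without anthesis replicate 1 (adjusted p = 0.0718 and 0.0635) or with the index form as a term. Csa7G072810 was not called without anthesis replicate 2 (0.0603) or inhibited replicate 2 (0.134), and Csa1G599540 not without anthesis replicate 3 (0.0599) or inhibited replicate 1 (0.137). By library, both inhibited values lay above all anthesis values in 9 genes (21.2% of the 16062 genes) and below all in 4 (23.9%).

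Without the clause on inhibited ovaries, 37 genes met the rule, and the inhibited libraries took no part in choosing them. Of the 37, the inhibited mean lay between the other 1-day groups in the 28 members, above the pollinated mean in 7 and below the unpollinated mean in 2. Inhibited ovaries were called higher than unpollinated ones in 24 of the 37 (9.81% of all genes tested), in a comparison that shares the unpollinated libraries with the choice. They were called lower than pollinated ovaries in 13 (4.81%) and higher in 1 (6.54% of all genes were called higher). This comparison shares the pollinated libraries with the choice, which asked for high pollinated means and so favours calls of lower. Against anthesis, whose libraries also entered the choice, 6 were called higher (4% of all genes) and 1 lower (3.36%).

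The 7 genes above the range were Csa2G010920, Csa3G889780, Csa4G628890, Csa5G352640, Csa6G499150, Csa6G525630 and Csa7G378530. Csa3G889780 went furthest, with 601 and 531 normalized counts in inhibited ovaries against 382, 444 and 413 in pollinated, 276, 315 and 308 in anthesis and 212, 237 and 221 in unpollinated ovaries. No library of its inhibited pair overlapped another group, and in log2 fold change they lay 0.46 ± 0.11 above the pollinated ovaries (SE; adjusted p = 0.019 by edgeR). Below the range lay Csa5G162580 and Csa6G513670. Csa5G162580 had 10781 and 10456 normalized counts in inhibited and 11763, 10779.9 and 11405 in unpollinated ovaries, with 22463, 20213 and 21127 in pollinated ovaries. In log2 fold change the inhibited ovaries stood at -1.0 ± 0.09 against pollinated ones (SE; adjusted p = 4.73e-05 by edgeR) and at -0.09 ± 0.08 against unpollinated ones (SE; adjusted p = 0.514 by edgeR). Its anthesis values were 15969, 14471 and 15674, apart from all the other groups. The nearest genes at the limits of the clause were Csa4G643090 at 98.0% and Csa6G525630 at 111%, and Csa4G294940 at 15.6% and Csa5G162580 at -9.99%.

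The identifiers of the 28 genes were spread over the table. Those beginning Csa4 were the most frequent, with 6 of 28, where 12.1% of the 16062 genes begin so, and Csa7 had 1, where 9.91% do. No members were neighbours in the order of identifiers: the closest pair, Csa4G643090 and Csa4G646190, had 63 other identifiers of the table between them.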

How the data were processed

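Reads were counted per gene by the authors, and the deposited raw counts are whole numbers for 23248 genes in 11 libraries. Per the submitters' processing notes the tools included DESeq2, HTSeq 0.6.1p1 and STAR 2.5.0a, without roles. Build, annotation and use of strand are not given in the sources, so overlapping genes and near-identical copies may share reads. Another 5 lines name no gene (10.8 to 24.8% of a library's reads) and were left out. The authors' deposited normalized signal equals these counts divided by 1 factor per library, and served for the rule, levels and within-group standard deviations, with a pseudocount of 1. Tests used the raw counts: edgeR 4.0.16 in R 4.3.3, filterByExpr, TMM and a quasi-likelihood fit of all 11 libraries with a mean per group. A call is an adjusted p (Benjamini-Hochberg) under 0.05 over the 18679 genes tested, in each of 6 contrasts that share libraries. An SE is the log2 fold change divided by the square root of F. The scripts were tested on simulated data.

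The members and lists were chosen with earlier results of these data known. All members are named, since 30 or fewer met the rule. Replicate numbers follow the order of the labels and pair nothing. Alternatives were another scaling (DESeq2 size factors), DESeq2 1.42.0, no filter, only the groups compared, an index term, and libraries left out.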

Additional observations from a re-analysis of the deposited data

How the results depend on the processing

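The number of genes that met the rule was 28 with TMM-scaled values (all 28 shared), 29 and 26 with pseudocounts of 0.5 and 5, 35 and 24 with anthesis minimums of 25 and 100, and 37 without the clause on inhibited ovaries. It was 22 to 39 with 1 library left out, and 49 without the 4 libraries of raised unassigned share, an alternative chosen after seeing the data. With 1 library left out, the members called were 25 to 27 for pollinated against unpollinated, 9 to 14 for pollinated against anthesis, 16 to 21 for unpollinated against anthesis, 1 to 11 for inhibited against pollinated, 12 to 17 for inhibited against unpollinated and 0 to 2 for inhibited against anthesis. All contrasts of the order were called in 9 to 13, and inhibited ovaries apart from both groups in 1 to 7. With the index term pollinated against unpollinated was called in 20 members, the fall without pollen in 7, inhibited below pollinated in 2, inhibited above anthesis in 0 (4 at an unadjusted p under 0.05), all contrasts of the order in 6 and inhibited apart from both in 2. A fit of only the groups compared called inhibited below pollinated in 5. Without the 4 libraries pollinated against unpollinated was called in 19, the rise with pollen in 3, inhibited below pollinated in 0, all contrasts in 3 and inhibited apart from both in 0. When the index term is fitted, comparisons of unpollinated with anthesis or pollinated ovaries rest on unpollinated replicate 1 alone. Those of inhibited with anthesis or pollinated ovaries take the index difference from the unpollinated libraries alone. The causes of these changes were not tested. Of 2856 fold changes of single members under the alternatives, 200 lost and 28 gained a call; no called value changed sign, and 68 values called in neither fit did. No paired analysis was possible because the labels give no replicate numbers shared between groups. The inhibited group rests on 2 ovaries. Without the 4 libraries, the pollinated and inhibited groups rest on 1 library each.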
